A study of Oryzias latipes with 3 samples.

Results

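In whole medaka embryos (Oryzias latipes) at developmental stage 24, 911 broad acetylated regions carried no H3K4me3 peak. They are the H3K27ac peaks of 2500 bp or more that shared no base with any H3K4me3 peak, and they were taken from lists of 24027 H3K27ac and 12884 H3K4me3 peaks made by chromatin immunoprecipitation and sequencing (ChIP-seq). They made up 7.04% of the 12938 H3K27ac peaks without H3K4me3 (Wilson 95% interval 6.61 to 7.49) and 3.79% of all H3K27ac peaks. They held 18.7% of the bases acetylated without H3K4me3, 3.08 of 16.5 Mb. They are called broad H3K27ac-only peaks here, and the other 12027 H3K27ac peaks without H3K4me3 are called narrower H3K27ac-only peaks.

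Acetylation of lysine 27 of histone H3 is laid down mainly by the acetyltransferases p300 and CBP and marks active enhancers and active promoters. Trimethylation of lysine 4 is laid down by the SET1 and MLL complexes and is concentrated at promoters, so that acetylation away from it is commonly used to list candidate enhancers. In mammalian cells, unusually long acetylated stretches and dense groups of them have been described beside genes of cell identity, under the names stretch enhancers and super-enhancers. Super-enhancers are defined by signal over stitched regions, which peak lists do not give, and stretch enhancers by the length of an enhancer chromatin state. Neither definition was applied here. Neither the genes beside the regions nor their activity was measured here.

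The series holds 3 samples of chromatin, each from 600 embryos raised at 26 °C and dechorionated by hand, with no treatment named and no strain given in the labels. An antibody to H3K27ac was used for 2 of them and an antibody to H3K4me3 for the third. One H3K27ac and one H3K4me3 peak list were used, and the H3K27ac sample labelled as a repeat is not analysed here. Both lists come from whole embryos, so acetylation over one long region in the same cells and acetylation over neighbouring parts of it in different cells cannot be told apart. Absence of H3K4me3 means that no peak was called, at a read depth that is unknown.

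Every value below comes from a single list per mark, and width and overlap chose the regions. The values are therefore descriptions without a test or a replicate check. Chromosomes of the same list are not replicates, so counts of chromosomes are descriptions too. Intervals are 95% intervals, Wilson for shares and from exact binomial ranks for medians. They cover counting error only, and they treat neighbouring peaks as independent, which they are not. Scores are the authors' own value per peak and carry no unit. Positions count from 1 and keep the lists' own genome build (not given in the sources used here).

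Broad acetylated regions were more often without H3K4me3 than with it. Of the 1437 H3K27ac peaks of 2500 bp or more, 911 lacked H3K4me3, or 63.4% (60.9 to 65.8), and 526 overlapped it. Below 2500 bp the share without H3K4me3 was 53.2% (52.6 to 53.9). The share did not climb steadily with width. It was 64.0% among peaks under 500 bp (60.9 to 67.1), 46.0% from 1000 to under 1500 bp (44.8 to 47.2), 58.9% from 2000 to under 2500 bp (56.4 to 61.4) and 65.7% from 2500 to under 3000 bp (62.0 to 69.2). Among the 129 H3K27ac peaks of 5000 bp or more it was 55.8% (47.2 to 64.1), an interval that overlaps those of the 4 classes from 2500 to under 5000 bp.

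**Figure D1:**
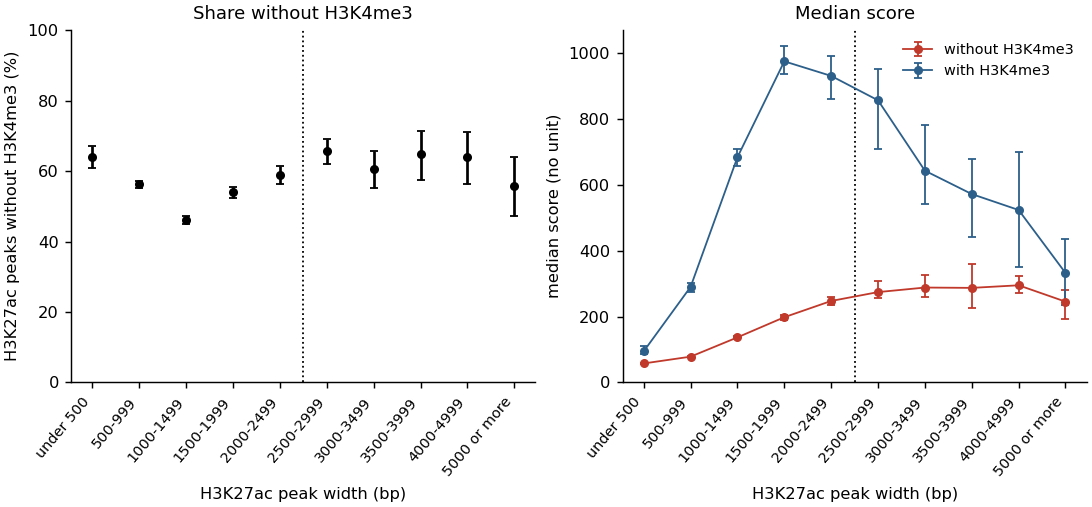
Left, share of H3K27ac peaks without H3K4me3 by peak width (bp), with Wilson 95% intervals; right, median score (no unit) of H3K27ac peaks without (red) and with H3K4me3 (blue), with 95% intervals of the median. The dotted line marks 2500 bp; beyond it the red medians lie between 245 and 295, while the blue ones go from 857 down to 332.

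The broad H3K27ac-only peaks ran from 2500 to 7462 bp, with a median of 3048 bp (2990 to 3106). Their middle 50% lay between 2721 and 3712 bp. Of the 911, 431 were under 3000 bp and 72 reached 5000 bp. The 3 just inside the minimum measured 2500, 2501 and 2503 bp and scored 203, 1283 and 141. The 3 just outside it measured 2497, 2497 and 2495 bp and scored 72.0, 729 and 514. The minimum therefore fell within a continuous range of widths, and the scores on its sides overlapped.

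Most broad H3K27ac-only peaks, 67.8% (64.7 to 70.8), scored at or above the median of the whole H3K27ac list, 195. Their median was 278 (264 to 293), with a range from 50.2 to 2306, against 104 for narrower H3K27ac-only peaks (103 to 107) and 211 for those of 1500 to under 2500 bp (204 to 219). The 526 broad peaks with H3K4me3 had a median of 623 (565 to 686). Of the broad H3K27ac-only peaks, 11.96% lay in the highest score quintile of all H3K27ac peaks, 37.0% in the fourth, 32.2% in the third, 13.5% in the second and 5.38% in the lowest. Of the broad peaks with H3K4me3, 46.6% lay in the highest quintile (42.4 to 50.9).

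Among H3K27ac-only peaks, score was higher in wider classes up to about the minimum and differed little beyond it. The median was 57.5 under 500 bp, 137 from 1000 to under 1500 bp and 247 from 2000 to under 2500 bp (236 to 259). It was then 274 from 2500 to under 3000 bp (256 to 308), 295 from 4000 to under 5000 bp (272 to 324) and 245 from 5000 bp upwards (194 to 281). Spearman's rho between width and score was 0.63 over the 12027 narrower H3K27ac-only peaks and -0.04 over the 911 broad ones, and -0.29 over the 526 broad peaks with H3K4me3. These coefficients describe peaks of 1 library, and both measures come from the same peak calls.

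**Figure D2:**
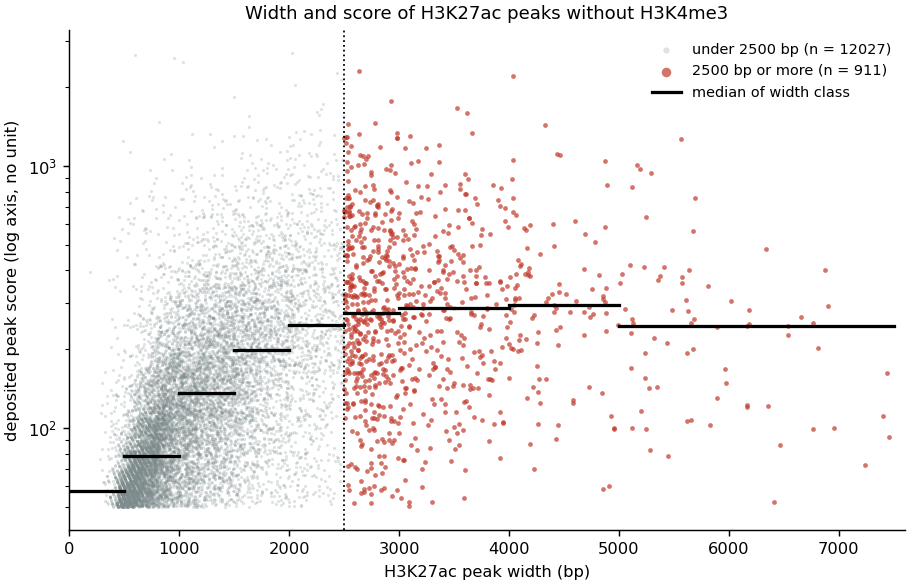
Width (bp) against deposited score (log axis, no unit) of each H3K27ac peak without H3K4me3, with narrower peaks in grey and the 911 of 2500 bp or more in red. Black bars are medians of width classes, which climb from 57.5 to 274 and then stay between 245 and 295.

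The widest of these regions were not high in score. The 12 widest measured 6542 to 7462 bp and scored between 72.4 and 401, with a median of 183. The widest lay at chromosome 22, 14146470 to 14153931, and scored 92.2. The next, at chromosome 10, 6957937 to 6965374, measured 7438 bp and scored 162. The third lay at chromosome 11, 10350201 to 10357605, measured 7405 bp and scored 111. Among the 12, a 6879 bp peak at chromosome 3, 29087230 to 29094108, had the highest score, 401. By edges, each of the 12 had another H3K27ac-only peak within 10 kb, and 8 had another broad one there. The edges of a wide peak reach further, and distances between midpoints are not given for these 12.

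Chromosome 10 held 3 of the 12 widest, within a span of 42.7 kb. The peak at 6957937 to 6965374 was followed after 1.54 kb by one of 7237 bp at 6966912 to 6974148, which scored 72.4. Another broad peak, of 3883 bp, followed at 6977044 to 6980926, with a score of 298. The 6765 bp peak at 6993906 to 7000670 scored 99.1 and was the closest of the 4 to H3K4me3, at 13.0 kb from a 2688 bp peak. The narrowest of these 4 peaks thus had the highest score.

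The regions of highest score were of ordinary width and lay on many chromosomes. The 12 highest came from 10 chromosomes, measured 2539 to 4324 bp and scored 1302 to 2306. The highest, a 2631 bp peak at chromosome 7, 14122776 to 14125406, stood apart from other acetylation without H3K4me3, with the nearest such peak 109 kb away. The second lay at chromosome 9, 19546978 to 19551010, measured 4033 bp and scored 2205, and its nearest H3K27ac-only neighbour was 34.4 kb away. The third, at chromosome 5, 28787167 to 28790093, scored 1773 and had a 3136 bp H3K4me3 peak 11.8 kb from it.

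The fourth, at chromosome 10, 10901378 to 10904902, scored 1666 and lay in a dense group described below. Of the 12, 5 had no H3K27ac-only peak within 10 kb, whereas none of the 12 widest lacked one. In all, 41 broad H3K27ac-only peaks scored 1000 or more, and 58.5% of them had such a neighbour (43.4 to 72.2). The corresponding share was 77.9% (68.1 to 85.4) for the 86 that scored under 100, and 87.0% (67.9 to 95.5) for the 23 of 6000 bp or more. The interval for the high scores overlaps both others. These counts and shares of neighbours are by edges only, which favours wide peaks.

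At the other end, the 6 of lowest score scored 50.2 to 52.3, next to the smallest score in the list, 50.0. They measured 2589 to 6409 bp and lay on chromosomes 1, 4, 15, 16, 19 and 24. The 6409 bp peak at chromosome 15, 6348920 to 6355328, scored 52.2 and belonged to a group of 7 H3K27ac-only peaks, 3 of them broad. The width minimum thus took in scores from 50.2 to 2306, which span most of the list.

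Broad H3K27ac-only peaks lay at all distances from H3K4me3. Edge to edge, the median distance to the nearest H3K4me3 peak was 14.7 kb (13.3 to 16.2), and the middle 50% lay between 6.38 and 33.9 kb. Within 5 kb were 175 of them, from 5 to 20 kb 373, from 20 to 100 kb 331 and beyond 100 kb 32. The median was 18.4 kb for narrower H3K27ac-only peaks (17.8 to 18.9) and 16.5 kb for those of 1500 to under 2500 bp (15.7 to 17.5).

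Here and below, neither edges nor midpoints are free of width. The edges of a wide peak reach further, and its midpoint lies further from any peak that it does not overlap. How much of the difference comes with width was not tested. Between midpoints the medians were 17.2 kb for broad peaks (15.95 to 18.6), 18.3 kb for those of 1500 to under 2500 bp (17.3 to 19.1) and 19.6 kb for all narrower ones (19.0 to 20.1). Within 10 kb by midpoints the shares were 29.6% (26.8 to 32.7) and 28.1% (27.3 to 28.9), intervals that overlap. By edges, broad peaks were the closer class on 18 of 24 chromosomes.

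**Figure D3:**
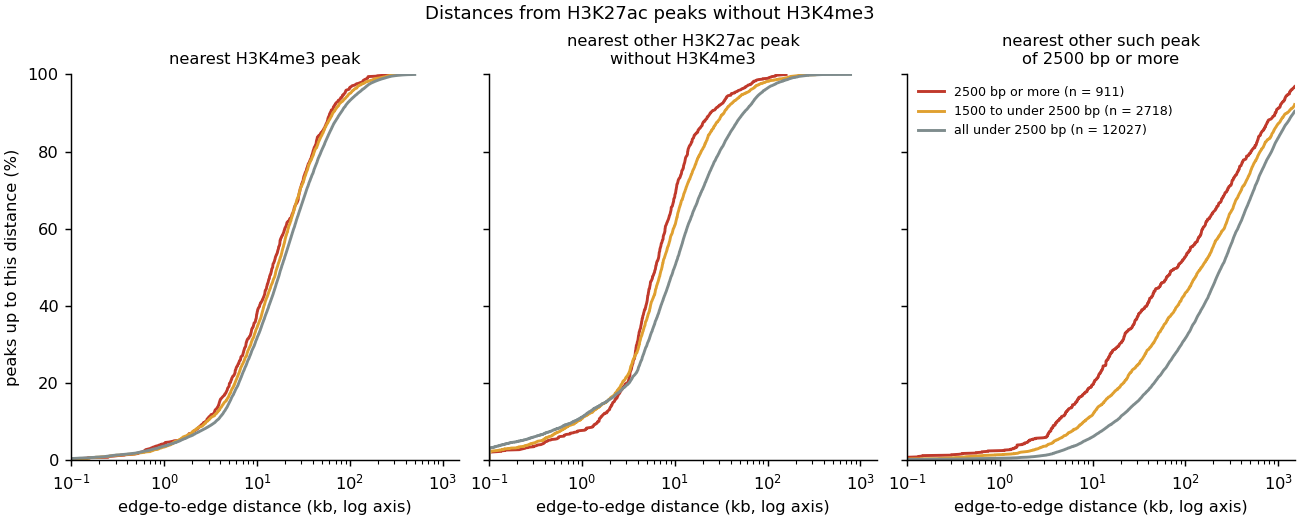
Cumulative share (%) of H3K27ac peaks without H3K4me3 against edge-to-edge distance (kb, log axis) to the nearest H3K4me3 peak, to the nearest other H3K27ac-only peak and to the nearest other broad one, for broad peaks (red), those of 1500 to under 2500 bp (orange) and all narrower ones (grey), with distances under 0.1 kb drawn at the left edge. The curves are closest in the left panel and furthest apart in the right one, where the medians are 82.7, 150 and 244 kb.

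By edges, the share of H3K27ac-only peaks that were broad was lowest at the remotest sites. It was 9.99% at 2 to 5 kb from H3K4me3 (8.37 to 11.9), 7.30% at 10 to 20 kb (6.38 to 8.33), 6.34% at 20 to 50 kb (5.59 to 7.19) and 3.80% beyond 100 kb (2.70 to 5.31). Up to 2 kb it was 7.618% (5.999 to 9.628). These shares are given by edges only, and the part of width in their decline was not tested. The median width of the broad peaks changed little over these distances, between 2966 and 3275 bp. Their median score was 189 up to 2 kb (144 to 250), between 264 and 288 from 2 to 100 kb, and 375 beyond 100 kb (267 to 415). Over all 911, Spearman's rho of distance was 0.07 with score and -0.04 with width.

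The remotest region was a 4687 bp peak with a score of 404 at chromosome 10, 4358078 to 4362764, with H3K4me3 332 kb away. A 2923 bp peak at chromosome 22, 10031428 to 10034350, was 241 kb away and scored 551. A 2878 bp peak at chromosome 2, 21191543 to 21194420, was 230 kb away and scored 457. These 8 farthest regions lay 156 to 332 kb from H3K4me3, and 5 of the 8 had no other H3K27ac-only peak within 10 kb.

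The nearest regions almost touched H3K4me3. A 3022 bp peak at chromosome 7, 11324505 to 11327526, ended 105 bp from an H3K4me3 peak of 1138 bp, and a 3299 bp peak at chromosome 4, 19856000 to 19859298, lay 115 bp from one of 2074 bp. The 8 nearest lay 0.105 to 0.253 kb away and scored 60.8 to 521. In all, 37 broad H3K27ac-only peaks, 4.06% (2.96 to 5.55), were within 1 kb of H3K4me3. Extending each H3K4me3 peak by 1 kb at both ends left 874 regions.

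The H3K4me3 peak nearest to a broad H3K27ac-only peak was broad more often than that nearest to a narrower one, although most were not broad. The nearest H3K4me3 peak measured 2500 bp or more for 121 of the 911, or 13.3% (11.2 to 15.6), against 8.17% for H3K27ac-only peaks of 1500 to under 2500 bp (7.196 to 9.257) and 5.18% for all narrower ones (4.80 to 5.59). Among all H3K4me3 peaks, counted once each, the share was 2.03%. Counted the same way, 71 of the 729 H3K4me3 peaks nearest to broad regions were that wide. The same count beside narrower H3K27ac-only peaks is not given, so this one does not set broad regions apart from them. By finer width classes of H3K27ac-only peaks, the share did not step up at the 2500 bp minimum. It was 10.96% from 2000 to under 2500 bp (9.05 to 13.2) and 10.4% from 2500 to under 3000 bp (7.90 to 13.7). From 3000 to under 3500 bp it was 11.6% and from 3500 to under 4000 bp 11.2%. From 4000 to under 5000 bp it was 23.3% (16.2 to 32.3). Beside all broad regions, the median width of the nearest H3K4me3 peak was 1496 bp (1450 to 1553), compared with 1240 bp beside narrower peaks (1228 to 1250). Its median score was 1296 (1198 to 1420) against 903 (876 to 934).

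The share beside a broad H3K4me3 peak was higher for broad than for all narrower H3K27ac-only peaks in each score quintile of H3K27ac. Where broad and narrower H3K27ac-only peaks fell in the same quintile, the share beside a broad H3K4me3 peak was 22.4% against 4.62% in the lowest, 12.3% against 6.16% in the third and 11.0% (6.41 to 18.3) against 5.09% (2.87 to 8.89) in the highest, where the intervals overlap. It was higher for broad peaks on 21 of 24 chromosomes. Neighbours were shared: the 121 regions had 71 different H3K4me3 peaks beside them, and up to 5 regions had the same one. The share was also 23.6% (15.3 to 34.6) for the 72 regions of 5000 bp or more and 10.4% (7.90 to 13.7) for the 431 under 3000 bp.

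Seen from the H3K4me3 list, broad H3K4me3 peaks had broad acetylation without H3K4me3 near them more often than narrow ones had. A broad H3K27ac-only peak lay within 20 kb of 20.6% of the 262 H3K4me3 peaks of 2500 bp or more (16.2 to 25.9), of 9.61% of those of 1500 to under 2500 bp (8.53 to 10.8) and of 4.48% of those under 1500 bp (4.09 to 4.90). For narrower H3K27ac-only peaks the 3 shares were 64.9%, 54.5% and 46.9%. Whether the nearest H3K4me3 peak was acetylated hardly differed: 87.0% of those beside broad regions overlapped H3K27ac (84.7 to 89.1), as did 84.8% of those beside narrower ones (84.2 to 85.5). The share was 87.2% beside H3K27ac-only peaks of 1500 to under 2500 bp (85.8 to 88.4) and 85.9% among all H3K4me3 peaks (85.3 to 86.5). The density of both marks in the same stretch of chromosome was not held fixed here, and its part in these values was not tested.

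Many broad H3K27ac-only peaks had other acetylation without H3K4me3 close by. Another H3K27ac-only peak lay within 10 kb by edges for 68.6% of them (65.5 to 71.5), for 60.9% of those of 1500 to under 2500 bp (59.0 to 62.7) and for 50.1% of all narrower ones (49.2 to 51.0). Between midpoints the shares were 56.9% (53.62 to 60.04), 54.7% (52.8 to 56.6) and 46.1% (45.2 to 47.0). By midpoints, then, the interval for broad peaks lay above that for all narrower ones and overlapped that for those of 1500 to under 2500 bp. Neighbouring peaks are not independent, so these intervals are no test. By edges the share within 10 kb exceeded that of narrower peaks on 23 of 24 chromosomes, and on chromosome 21 it was lower, at 42.9% against 49.7%. Within 1 kb by edges the order was reversed. There the share was 7.57% for broad peaks (6.03 to 9.48) and 10.7% for those of 1500 to under 2500 bp (9.60 to 11.9). For all narrower ones it was 11.1% (10.5 to 11.7).

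When neighbouring H3K27ac-only peaks were joined into domains wherever the gap between their edges was at most 10 kb, the share of broad peaks was higher in larger domains. Peaks that stood alone were broad in 4.55% of cases (4.06 to 5.10), those in pairs in 6.63% (5.83 to 7.54), those in domains of 3 to 4 in 10.7% (9.514 to 11.99) and those in domains of 5 to 9 in 14.7% (12.6 to 17.1). In the 6 domains of 10 or more peaks, 16 of 69 were broad, or 23.2% (14.8 to 34.4). Joining by edges favours wide peaks, and these shares by domain size are given by edges only. Domains of 5 or more peaks held 153 broad peaks, 16.8% of all 911 (14.5 to 19.4), against 7.06% of narrower ones (6.61 to 7.53). When stitched by midpoints these shares were 8.89% (7.21 to 10.9) and 4.46% (4.10 to 4.84), with 7.21% (6.30 to 8.25) for peaks of 1500 to under 2500 bp, an interval that overlaps the first.

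The median score of broad peaks was 309 where they stood alone (95% interval 282 to 348), 269 in pairs (227 to 309), 260 in domains of 3 to 4 (229 to 279), 277 in domains of 5 to 9 (245 to 321) and 227 in the 16 peaks of domains of 10 or more (166 to 454). Of the 167 domains of 5 or more peaks, 94 contained a broad peak, or 56.3%. Of all 8811 domains, 780 contained one. A domain of more peaks is likelier to contain a broad one by its size alone, which was not held fixed here.

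Broad H3K27ac-only peaks also lay near each other. The nearest other one was a median of 82.7 kb away (61.5 to 103), and 52.6% had one within 100 kb (49.3 to 55.8). From narrower H3K27ac-only peaks the nearest broad one was a median of 244 kb away (234 to 255), and 31.6% had one within 100 kb (30.7 to 32.4). Those of 1500 to under 2500 bp lay between, with a median of 150 kb (132 to 167) and 43.3% within 100 kb (41.5 to 45.2). The 911 fell into 780 domains, of which 682 contained 1 broad peak, 73 contained 2, 19 contained 3, 4 contained 4 and 2 contained 5. H3K4me3 peaks divide each chromosome into stretches, those past the first or last such peak included. Of the 5013 stretches that held any H3K27ac-only peak, 681 held a broad one. Of these, 146 held 2 or more, with 41.3% of all broad peaks. The 146 were picked by their broad peaks, so this share is high by construction. The share of narrower peaks in them is not given. Lengths are given only for stretches with H3K4me3 at both ends. Among these, the share of broad peaks was 6.44% under 20 kb (4.97 to 8.30), 7.76% from 50 to 100 kb (6.89 to 8.72) and 5.80% over 200 kb (5.01 to 6.71).

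**Figure D4:**
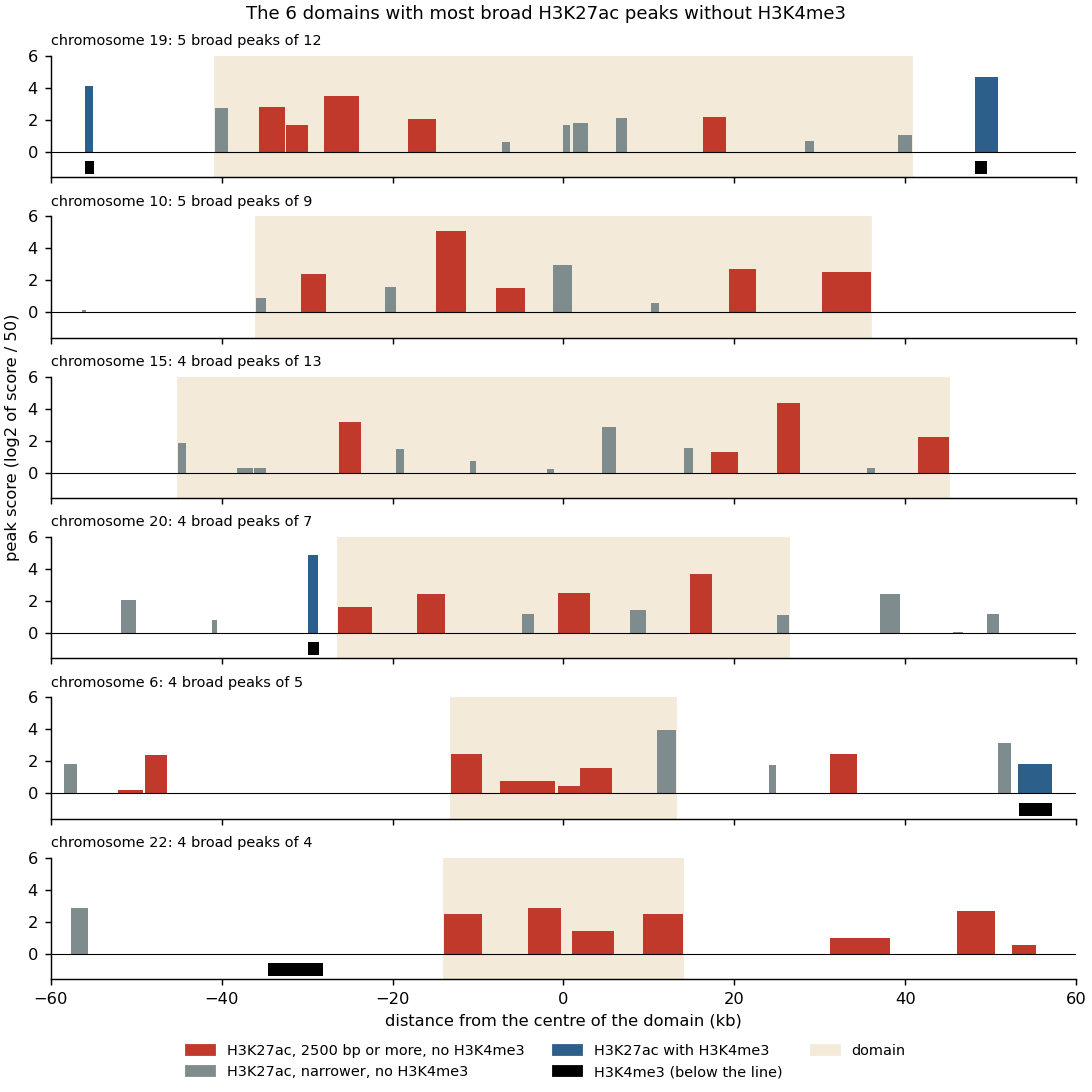
The 6 domains with most broad H3K27ac-only peaks, by distance (kb) from the domain's centre; bar width is peak width, bar height the log2 of score divided by 50, and black blocks under the line are H3K4me3 peaks. Broad peaks (red) make up 5 of 12 peaks in the top panel and 4 of 4 in the bottom one. None of these 6 domains contains an H3K4me3 peak, which could lie only in the gaps between their peaks.

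The 6 domains with most broad peaks held 26 of them, and none contained an H3K4me3 peak. Domains were built from peaks without H3K4me3, so one could lie only in the gaps of at most 10 kb. How many other domains contained one is not given. At chromosome 19, 9563472 to 9644936, 5 of 12 peaks were broad, with widths of 2545 to 4153 bp and scores of 163 to 572. The first 2 of them, at 9568577 to 9571678 and 9571776 to 9574320, were 97 bp apart. At chromosome 10, 10880400 to 10952271, 5 of 9 peaks were broad. Their scores, in order along the chromosome, were 258, 1666, 145, 326 and 281. A single peak thus held a score several times that of its neighbours, and the domain was 44.9 kb from H3K4me3.

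At chromosome 15, 28703810 to 28793949, 4 of 13 peaks were broad, with scores of 459, 124, 1009 and 233, and the 9 others had a median of 82.3. At chromosome 20, 20027010 to 20079816, 4 of 7 were broad, with scores of 156, 273, 288 and 646, and H3K4me3 lay 2.24 kb from the domain's edge. In these 4 domains broad peaks had a higher median score than the narrower peaks beside them. The reverse held at chromosome 6, 13499201 to 13525576, where 4 of 5 peaks were broad with scores of 271, 86.1, 69.7 and 146, and the only narrower peak, of 2207 bp, scored 783.

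At chromosome 22, 6736449 to 6764405, all 4 peaks were broad, with widths of 4409, 3794, 4849 and 4683 bp and scores of 278, 359, 136 and 277, and acetylation covered 63.4% of the domain. Its nearest H3K4me3 peak, 14.1 kb away, was 6412 bp wide. A further 3 broad peaks followed before the next H3K4me3 peak. They lay at 6781656 to 6788617, 6796518 to 6800870 and 6802857 to 6805726 and scored 99.9, 314 and 71.2. This stretch of 139 kb without H3K4me3 therefore held 7 broad peaks among 11 H3K27ac-only peaks. Only the stretch around the chromosome 6 domain, of 200 kb, held as many, 7 of 14.

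Some neighbouring calls were nearly continuous. The closest pair of broad peaks, at chromosome 16, 12267148 to 12271252 and 12271264 to 12274146, was separated by 11 bp, with scores of 199 and 159, and spanned 6999 bp together. The next pair, within the chromosome 6 domain, was separated by 16 bp, and the fourth, also on chromosome 6, at 13460257 to 13463235 and 13463370 to 13465981, by 134 bp with scores of 58.3 and 261. There were 8 neighbouring pairs up to 500 bp apart and 22 up to 2000 bp apart. With H3K27ac peaks of both kinds counted, 58 broad H3K27ac-only peaks had a neighbour within 500 bp. Such counts are not given for narrower peaks, and close calls were not particular to broad ones. Another H3K27ac-only peak lay within 1 kb by edges for 7.57% of broad peaks and 11.1% of narrower ones.

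The chromosomes differed in how many broad H3K27ac-only peaks they carried. Chromosome 9 carried most, 77, which is 11.5% of its H3K27ac-only peaks (9.29 to 14.1). Chromosomes 23, 18, 2 and 14 carried 12, 11, 14 and 18, or 2.68% (1.54 to 4.63), 2.86% (1.61 to 5.06), 3.704% (2.219 to 6.120) and 3.77% (2.40 to 5.89). Chromosomes 9, 10 and 22 had intervals wholly above the overall 7.04%, and chromosomes 2, 11, 14, 18 and 23 had intervals wholly below it. These are extremes picked from 24 chromosomes. Chromosome 1, the sex chromosome of medaka, carried 34, or 5.92% (4.27 to 8.16), with a median score of 299.

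**Figure D5:**
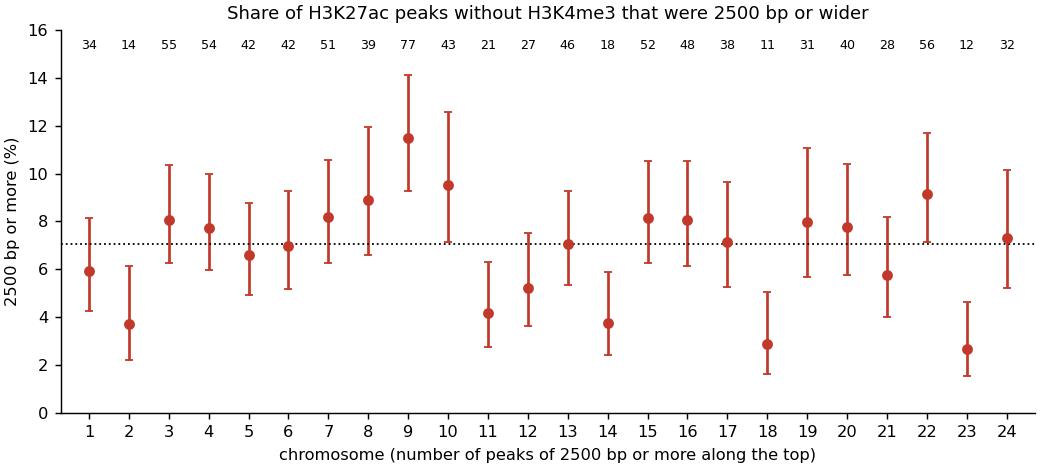
Share (%) of H3K27ac peaks without H3K4me3 that were 2500 bp or wider on each chromosome, with Wilson 95% intervals, the number of such peaks along the top and the overall 7.04% as a dotted line. Chromosome 9 is highest at 11.5% and chromosome 23 lowest at 2.68%.

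The median score of broad H3K27ac-only peaks exceeded that of narrower ones on all 24 chromosomes. The median was lowest on chromosome 24, at 194, and highest on chromosome 18, at 380, with 96.0 to 116 for narrower peaks. Of the broad H3K27ac peaks, the share without H3K4me3 was lowest on chromosome 14, at 46.2% (31.6 to 61.4), and highest on chromosome 2, at 77.8% (54.8 to 91.0), intervals that overlap.

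Broad H3K27ac-only peaks were also counted in windows along the chromosomes. Of the 714 windows of 1 Mb that held an H3K27ac-only peak, 410 held a broad one, and 45 held 5 or more, with 31.9% of the broad peaks and 10.6% of the narrower ones. These 45 windows were picked by their broad peaks, so the first share is high by construction. Whether broad peaks were spread more unevenly than narrower ones was not tested. The most in a window was 11, reached on chromosomes 6, 7 and 24, in windows singled out after their values were seen. On chromosome 24 the 11 lay within 169 kb, at 6585869 to 6755155, measured 2526 to 5968 bp and scored from 50.2 to 252, with a median of 142. There were 4 H3K4me3 peaks in that span. Without that window, the median score of the other 21 broad peaks of chromosome 24 was 231 instead of 194. On chromosome 7 the 11 lay within 440 kb and scored 120 to 845, and on chromosome 6 they lay within 532 kb and scored 58.3 to 730. Without its window, the median score on chromosome 7 was 305 over the other 40 broad peaks instead of 286. On chromosome 6 it was 356 over the other 31 instead of 266.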

How the data were processed

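Chromatin of whole embryos was precipitated with antibodies to H3K27ac or H3K4me3, and fragments of 200 to 300 bp were kept, per the labels' protocols. Per the submitters' processing notes, Bowtie was the aligner. The deposited peaks are named after MACS, a peak caller. Its version and settings, a control library, pooling and the genome build were not given in the sources used here. Both deposited lists hold positions and a score for every peak, and the authors' score, of unstated meaning, was used only within its list. Read depth is unknown.

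Regions were chosen from the deposited lists by width (end minus start) of 2500 bp or more and by sharing not even 1 bp with H3K4me3. Regions and comparisons were chosen with earlier results of these data known. Distances were taken from edge to edge unless midpoints are named. Named regions are the 12 widest, the 12 of highest and 6 of lowest score, the 8 farthest from and 8 nearest to H3K4me3, the 6 domains with most broad peaks, the 4 closest pairs and the 3 on either side of the width minimum. Those that add nothing are given by their range. The gene table at hand is not known to share the lists' build, and peaks on 8 chromosomes lay past its last gene. No gene or sequence is therefore given. Overlaps were computed in Python 3.11.15 and counted again with bedtools 2.31.1, with pandas 2.3.3, NumPy 2.4.6, SciPy 1.17.1 and matplotlib 3.10.9 for the rest, and the routines were tested on simulated data. Alternatives covered the width minimum, the overlap rule, score, joining of close peaks, distances and chromosome 9.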

Additional observations from a re-analysis of the deposited data

How the results depend on the processing

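Of the 69 alternatives run, 40 left the value within its interval (counts within 1.5 times) and 29 moved it. The share of broad H3K27ac peaks without H3K4me3 stayed above the share with it in all 7 of its alternatives, between 57.0% and 77.6%. Of these alternatives, comparisons with narrower peaks were recomputed for midpoints alone. Midpoints for neighbours and domains were chosen after seeing the data. With minimum widths of 2000 and 3000 bp there were 1778 and 480 regions instead of 911, or 13.7% and 3.71% of H3K27ac-only peaks instead of 7.04%, and 69.0% and 40.8% had another within 100 kb instead of 52.6%. The median score became 262 at 2000 bp. With the 50% of H3K27ac peaks of highest score, 618 regions were left, 18.3% of H3K27ac-only and 57.0% of broad H3K27ac peaks, with a median score of 371. Then 31.1% had an H3K27ac-only neighbour within 10 kb, 0.647% lay in domains of 5 or more and 43.0% had another broad one within 100 kb. With the 50% of H3K4me3 peaks of highest score, regions made up 6.34% of H3K27ac-only and 77.6% of broad H3K27ac peaks, their median distance was 27.6 kb and 68.3% lay within 50 kb instead of 84.9%. Joining H3K27ac peaks up to 500 bp apart gave shares of 8.47% and 60.4%, and extending H3K4me3 by 1 kb gave 60.8% of broad H3K27ac peaks. Midpoints gave 17.2 kb to H3K4me3, 56.9% with an H3K27ac-only neighbour and 8.89% in domains of 5 or more. Neighbours within 5 and 20 kb gave 40.9% and 87.3% instead of 68.6%. Gaps of 5 and 20 kb put 1.21% and 47.1% of regions in domains of 5 or more instead of 16.8%. Ranges of 50 and 200 kb gave 44.5% and 64.3% with another broad peak. Leaving out chromosome 9 left all 9 values within their intervals or, for the number of regions, at 834. Fewer peaks or a longer reach change these shares by construction. No paired analysis was possible because only 1 list per mark was used. Read depth, and so what the lists could detect, is unknown.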
